A study of Caenorhabditis elegans with 80 samples.

Results

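Gene expression was compared between replicate libraries of the same worms: 20 RNA-seq libraries of the Caenorhabditis elegans strain CF1038 at day 6, out of 80 libraries in the series. CF1038 carries daf-16(mu86), a mutation of the gene for the FOXO transcription factor DAF-16. The reading set beside it was the 30 libraries of wild-type N2 worms at day 6 whose library names carry no age. Both strains were grown at 20 °C on plates with streptomycin and OP50-1 bacteria and were given FUDR, an inhibitor of DNA synthesis that keeps an adult population free of progeny. Each library is RNA of whole worms, so fewer cells of a type and less RNA per cell cannot be told apart in any value below. The labels do not say whether libraries of a strain came from separate cultures, so the spread described here may be in part technical.

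DAF-16 acts downstream of the insulin-like receptor DAF-2 and switches on genes of stress resistance, metabolism and immunity when insulin signalling is low. The cuticle is a collagen-rich coat made by the hypodermis, and the intestine is both the digestive organ and the main fat store and yolk source of the adult.

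The total count of a library ran from 34443138 to 42669211 in CF1038, and 19695 to 20519 genes had at least 1 count. Ribosomal RNA took 0.241 to 1.39% of the counts and mitochondrially encoded messages 0.411 to 0.993%. daf-16 itself (chromosome I, 10750498 to 10776703, WBcel235) stood at 95.0 ± 8.74 CPM (counts per 1000000 counts of the library; SD, n = 20) in CF1038 and at 164 ± 17.6 CPM (SD, n = 30) in N2. The CF1038 libraries lay between 74.6 and 106 CPM and the N2 libraries between 125 and 193, with no overlap. A count over the whole gene does not show which part of it was transcribed. No pair of CF1038 libraries agreed within sampling noise: the chi-square statistic of their counts per degree of freedom was 11.2 for the closest pair, libraries 3 and 5.

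The spread of a gene is the SD of its log2 CPM over the 20 libraries, and its ratio is that SD divided by the SD typical of genes at the same level, read from a smooth trend. A gene was called variable at a ratio of at least 2. Of 13046 genes with a mean of at least 1 CPM, 1250 were variable, or 9.58%. The typical SD was 0.373 among genes of 1 to 3 CPM and 0.159 among genes of 100 to 300 CPM, where counting error alone gives 0.0196. The genes just inside the threshold were dec-7, R05D7.1 (ratio 2.001) and ifd-1 (2.002), and those just outside it phat-8, pho-1 and nhr-97 (1.999).

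**Figure D1:**
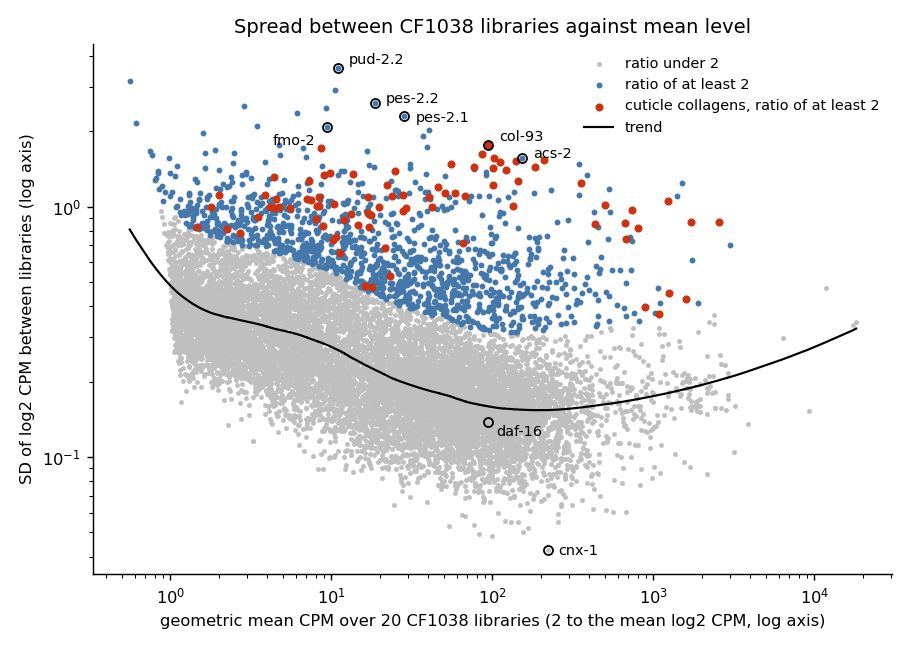
Spread between the 20 CF1038 libraries (SD of log2 CPM, log axis) against level (geometric mean CPM, log axis) for 13046 genes, each point a gene, with the trend as a line. Blue and red points are the 1250 genes with a ratio of at least 2, red ones being the 83 variable cuticle collagens, which are found above the trend from low to high levels.

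Libraries 9 and 11 stood apart from the other CF1038 libraries. A library's deviation was taken as the root mean square difference of its log2 CPM from the mean of the other libraries over all tested genes, scaled for the number of libraries. It was 0.559 for library 11 and 0.540 for library 9, against 0.454 for library 1, 0.453 for library 16, 0.437 for library 13, and 0.257 to 0.385 for the remaining libraries. Library 11 was the library farthest from the median for 432 of the 1250 variable genes (34.6%) and library 9 for 241 (19.3%), followed by library 16 with 140 and library 1 with 97. Library 9 had 829 genes more than 2-fold below their median and 154 more than 2-fold above it. Library 11 had 667 below and 303 above. Neither library was at an extreme of total count, with 37200590 counts for library 9 and 38688609 for library 11, although library 11 had the most genes detected. Without both libraries 1058 of 13038 genes were variable (8.12%), of which 1000 were among the 1250. The main results below are given with and without them.

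Cuticle collagens held the most variable genes of any family. Of 120 collagen genes with a mean of at least 1 CPM, 83 were variable (69.2%, against 9.58% of all genes), with a median ratio of 3.25, where the median over all genes was 0.997. Without libraries 9 and 11, 74 of 120 were variable. The summed level of all collagens was 4909 CPM in library 11 and 5177 in library 9, then 11590 in library 15 and 14170 in library 18, and reached 30520 CPM in library 19. All 83 variable collagens had their lowest value in library 11 (43 genes), library 9 (34 genes) or library 16 (6 genes), and 52 of them had their highest value in library 1.

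col-93 (chromosome III, 10984552 to 10985609) had the widest spread of any collagen. It stood at 4.03 CPM in library 11 and 6.09 CPM in library 9, at a median of 165 CPM, and at 286 CPM in library 1, a 70.9-fold range. Its SD of 1.76 on the log2 scale was 11.1 times the trend, and 6.80 times without libraries 9 and 11. col-80 ran from 3.91 CPM in library 11 through a median of 140 CPM to 221 CPM in library 7. col-160 ran from 11.9 CPM in library 11 through a median of 322 CPM to 507 CPM in library 1. In both genes library 9 was the next lowest and library 18 the one after it, so the low values were not confined to the libraries that stood apart.

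Among the 25 genes with the largest ratios, of those with a mean of at least 5 CPM and a standard symbol, were 14 collagens. They were sorted into 2 kinds by their lowest library. For col-93, col-80, col-160, col-94, col-42, col-98, col-103 and col-124 the lowest library was library 11. For col-117, col-3, col-10, col-167, col-147 and col-144 it was library 9, and library 1 was the highest for all 6. col-117 (chromosome IV, 8822962 to 8824195) had 15.2 CPM in library 9 and 15.3 in library 11, a median of 109 and 499 CPM in library 1. Its neighbour col-3 had 14.6 CPM in library 9, a median of 120 and 450 CPM in library 1. Members of the first kind correlated with each other at a median r of 0.98 over the 20 libraries and members of the second at 0.99, while r between the kinds was 0.84. These correlations describe genes that share libraries and were chosen for their spread.

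The kinds were also read in the N2 libraries, which had no part in choosing them. Ratios in N2 are taken against a trend fitted to N2 alone, so they are not on the scale of those in CF1038. In N2 the 8 genes lowest in library 11 had ratios of 2.13 to 3.92, below their 7.87 to 11.1 in CF1038. The 6 genes lowest in library 9 had ratios of 7.85 to 10.5 in N2, close to their 7.74 to 9.86 in CF1038. The SDs themselves were 0.43 to 0.78 in N2 and 1.24 to 1.76 in CF1038 for the first kind. For the second kind they were 1.57 to 2.09 in N2 and 1.22 to 1.56 in CF1038. The median r in N2 was 0.91 within the first kind, 0.99 within the second and 0.52 between them. With libraries 9 and 11 left out, the ratios in CF1038 were 3.03 to 6.80 for the first kind and 6.24 to 8.47 for the second.

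**Figure D2:**
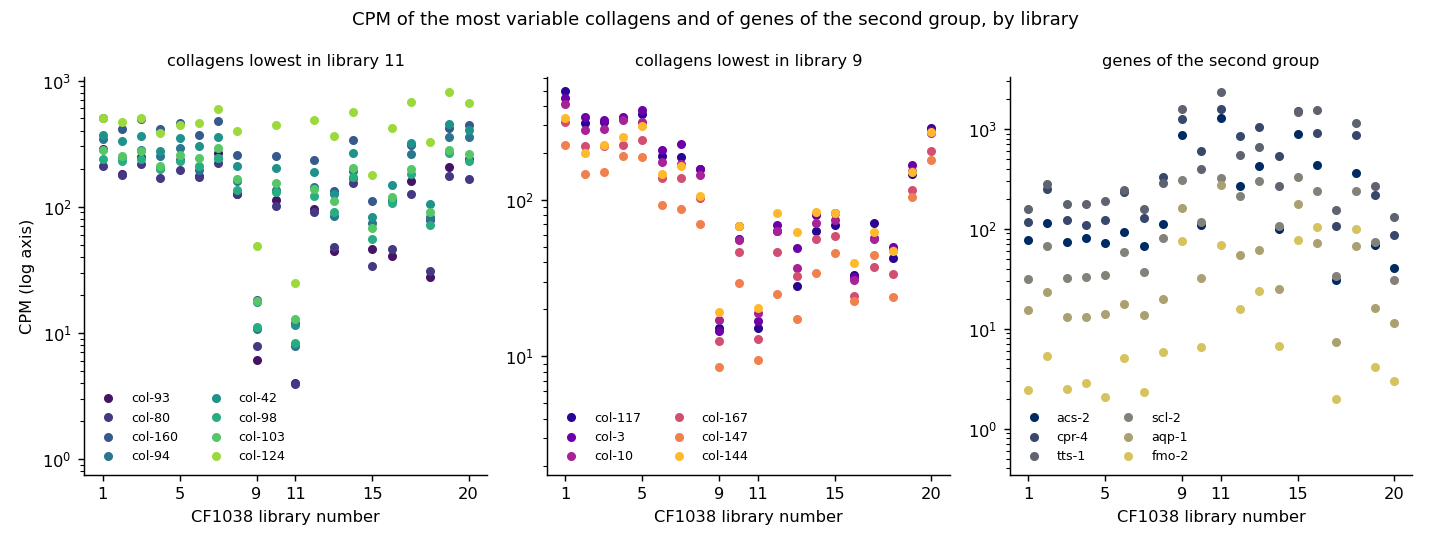
CPM (log axis) in each of the 20 CF1038 libraries for the 8 collagens lowest in library 11, the 6 collagens lowest in library 9 and 6 genes of the second co-varying group; each point is a library and colours are genes. The collagens drop in libraries 9 and 11, the 6 collagens of the middle panel are highest in library 1 (225 to 499 CPM), and the genes on the right are high in libraries 9, 11 and 15.

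Other cuticle genes and yolk genes were also variable. Of 81 tested genes for moulting and cuticle formation outside the collagens, 21 were variable (25.9%, against 9.58% of all genes). Without libraries 9 and 11 it was 18 of 82 (21.95%, against 8.12%). One of the 21 was cut-2, a cuticlin, with 4.80 CPM in library 11, a median of 27.04 and 79.2 CPM in library 1. mlt-11, a moulting gene, ran from 11.5 CPM in library 16 to 87.1 CPM in library 1. Of 27 secreted proteins of the pharyngeal cuticle, 15 were variable (55.6%) with and without libraries 9 and 11, with abu-14 at 3.27 to 39.8 CPM. Of the 6 vitellogenins, the yolk proteins that the intestine makes for oocytes, vit-1, vit-3 and vit-4 were variable (50%). Without libraries 9 and 11, 4 of the 6 were variable (66.7%). vit-4 had 107 CPM in library 11 and 364 CPM in library 9, a median of 1966 and 3592 CPM in library 10. Without libraries 9 and 11 its ratio was 4.10 in place of 6.69. The summed level of all 6 vitellogenins was not low in these libraries, with 48170 CPM in library 11 and 52440 CPM in library 9. That sum ran from 32450 CPM in library 4 to 79490 CPM in library 12.

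Proteases, immune genes and enzymes of fat metabolism also had many variable members. Among aspartic and cysteine proteases 17 of 22 were variable (77.3%), among lysozymes 10 of 12, among lipases and fatty acid enzymes 25 of 55, among C-type lectins 38 of 94, and among irg and dod genes, named for their responses to infection and to DAF-16, 12 of 18. All 5 tested pud genes, named for proteins that are up in daf-2 mutants, were variable. Without libraries 9 and 11 these counts were 17, 10, 19, 34, 12 and 5. Glutathione S-transferases (10 of 34, then 5), UDP-glucuronosyltransferases (14 of 55, then 7), transthyretin-like genes (18 of 46, then 11) and antimicrobial peptides (8 of 22, then 2) had fewer variable members without the 2 libraries. Their shares were then 14.7%, 12.7%, 23.9% and 9.09%. Of all genes 9.58% were variable, and 8.12% without the 2 libraries, so the antimicrobial peptides came near that share.

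acs-2, an acyl-CoA synthetase of mitochondrial fat oxidation (chromosome V, 15567394 to 15569897), had 30.9 CPM in library 17, a median of 104 and 1292 CPM in library 11. Libraries 15 and 9 followed at 883 and 873 CPM. The ratio was 10.1, and 8.32 without libraries 9 and 11. cpr-4, a cathepsin B-like protease, ran from 87.7 CPM in library 20 through a median of 291 to 1596 CPM in library 11, with library 15 at 1498 CPM. tts-1, a long non-coding RNA, ran from 131 CPM in library 20 through a median of 276 to 2317 CPM in library 11. fmo-2, a flavin-containing monooxygenase, had 1.97 CPM in library 17, a median of 5.62 and 104 CPM in library 16. Libraries 18, 15, 9 and 11 were also high, at 98.7, 77.0, 75.8 and 68.8 CPM, and the rest lay between 1.97 and 23.6 CPM.

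Lysosomal lipases varied with these genes. lipl-3 had 1.14 CPM in library 1, a median of 3.31 and 64.4 CPM in library 11. lipl-1 had 3.77 CPM in library 1, a median of 20.8 and 75.7 CPM in library 11. The catalases ctl-2 (50.3 to 236 CPM) and ctl-1 (54.2 to 186 CPM) were both lowest in library 17 and highest in library 13. The lysozymes divided by library: lys-4 was lowest in library 1 (34.4 CPM) and highest in library 16 (328 CPM), while lys-2 was lowest in library 11 (11.9 CPM) and highest in library 20 (252 CPM).

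Several families had a smaller share of variable members than the 9.58% of all genes. None of the 33 proteasome subunits was variable (median ratio 1.05), with or without libraries 9 and 11. None of the 32 sperm genes outside the major sperm proteins was variable, and 2 of 30 were without libraries 9 and 11. Of 77 ribosomal protein genes 4 were variable (5.19%), of 243 F-box genes 7 (2.88%) and of 174 nuclear hormone receptors 6 (3.45%). Without libraries 9 and 11 these counts were 2, 3 and 4. The steadiest of the genes with at least 5 CPM was cnx-1, the calnexin chaperone of the endoplasmic reticulum, with 212 CPM in library 1, a median of 221 and 233 CPM in library 14. Its SD was 0.04 on the log2 scale, 0.276 of the trend. vnut-1, atg-7, pfkb-1.2, egl-26, aatf-1, znf-622 and hadb-1 followed with ratios of 0.304 to 0.339. daf-16 had a ratio of 0.866.

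Among tissue markers, those of muscle, cuticle and intestine were often variable and those of the germ line were not. All 10 body wall muscle markers were variable (median ratio 4.25), with and without libraries 9 and 11. unc-54, the main myosin heavy chain of body wall muscle, ran from 167 CPM in library 11 through a median of 598 to 950 CPM in library 1. myo-3, the other such myosin, ran from 13.7 CPM in library 16 through a median of 46.7 to 112 CPM in library 1. Summed, the muscle markers stood at 901 CPM in library 11, 934 CPM in library 9, a median of 2310 and 3573 CPM in library 1. Of 7 hypodermal markers tested 4 were variable, of 8 moulting markers 6, of 8 pharyngeal markers 4, and of 9 intestinal markers 5. Without libraries 9 and 11 these counts were 4, 5, 4 and 4. The variable hypodermal markers were the collagens dpy-7 and rol-6, the cuticlin cut-2, and ptr-4. The others, elt-3, nhr-23 and wrt-10, had ratios of 1.438, 1.519 and 1.625. The collagen col-10 was among the variable moulting markers, so these 2 lists overlap with the collagens and cuticle genes above. Among the intestinal markers act-5, the actin of the microvilli, ran from 52.9 CPM in library 11 to 442 CPM in library 10. elt-2, the GATA factor of the intestine, ran from 13.1 to 22.8 CPM. Of the 9 intestinal markers 4 were lowest in library 11 and 1 in library 9, while the variable asp-1 was lowest in library 17 and highest in library 13. Summed, they stood at 2454 CPM in library 17, 2699 in library 11, 2757 in library 9, a median of 3430 and 4974 CPM in library 10.

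None of the 11 markers of oocytes and eggshell, the 11 of proliferating or meiotic germ cells or the 9 of early embryos was variable. Their median ratios were 0.947, 1.06 and 0.9155. With 9.58% of all genes variable, a count of 0 in a list this short is near that share. The summed oocyte markers lay between 10840 CPM in library 11 and 16110 CPM in library 13, and the germ cell markers between 2001 and 3009 CPM. Neurons had 1 variable marker of 10, egl-3, a peptide-processing convertase. The markers of sperm summed to 13.4 to 26.1 CPM, and those of males to 6.13 to 13.7 CPM, with 0 of 5 and 1 of 2 tested markers variable (1 of 5 and 1 of 2 without libraries 9 and 11). None of the 3 markers of gonadal sheath and spermatheca and 0 of 1 of coelomocytes was variable. In N2, against its own trend, 3 of the 10 muscle markers had a ratio of at least 2 (median 1.77) and 1 of the intestinal markers did. Of the lists of pharynx, hypodermis, moulting and neurons in N2, 5 pharyngeal, 5 hypodermal (median 4.07 against 3.24 in CF1038), 6 moulting and 1 neuronal marker had such a ratio, and none of the males list did. Again none of the oocyte, germ cell or embryo markers did. The differences between strains in these counts were not tested. The part of tissue make-up in the spread of the collagens and metabolic genes was not tested.

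**Figure D3:**
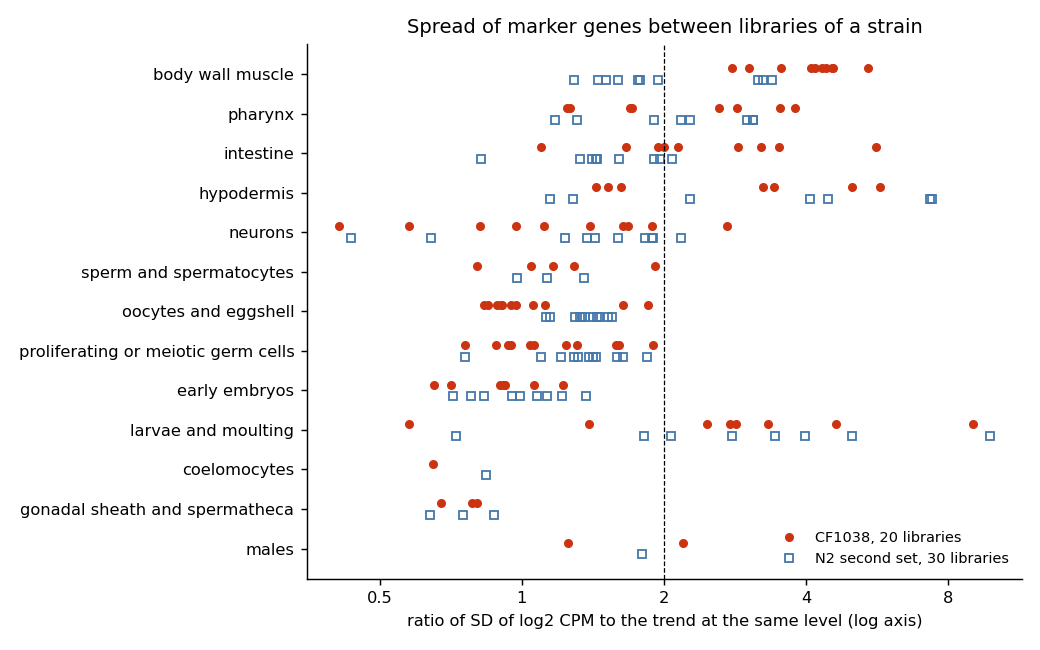
Ratio of the SD of log2 CPM to the trend of the same strain (log axis) for each marker gene of 13 tissue lists, in the 20 CF1038 libraries (red circles) and the 30 N2 libraries (blue squares). The dashed line marks the ratio of 2. All 10 muscle markers of CF1038 lie beyond the line, and all oocyte, germ cell and embryo markers lie short of it in both strains.

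For some of the genes with the largest ratios, 2 near-identical copies lie close together on a chromosome. pud-2.2 had the largest ratio of the named genes, 13.4, and pes-2.2 (11.6), pes-2.1 (11.6), numr-2 (11.0), hsp-16.48 (10.8) and numr-1 (10.3) were, with col-93, the next. A read that fits both copies is shared out by a model, so the split between copies is uncertain. The pairs were chosen after their values were seen. The ratio of pes-2.1 was 4.71 without library 5, and with the median absolute deviation (MAD) in place of the SD the ratios were 2.71 for pes-2.1, 2.59 for pes-2.2, 3.31 for hsp-16.48 and 5.26 for pud-2.2. pes-2.1 ran from 0 CPM in library 5 to 93.3 CPM in library 3, and pes-2.2 from 0 CPM in library 13 to 77.7 CPM in library 5. In 10 of 20 libraries both copies had counts equal within 1%. Their sum lay between 60.2 and 99.4 CPM, with a ratio of 1.18, so the combined level of the copies was not variable by this measure.

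hsp-16.48 and hsp-16.49, small heat shock proteins, had equal counts within 1% in 11 of 20 libraries, and their sum (40.6 to 86.4 CPM) had a ratio of 1.996, just under the threshold. The metal-responsive genes numr-1 and numr-2 had equal counts in 2 libraries. Their sum kept a ratio of 2.86, with 67.1 CPM in library 13, a median of 144 and 206 CPM in library 19. The summed pud-2.1 and pud-2.2 kept a ratio of 3.87, from 51.6 CPM in library 20 to 222 CPM in library 12. F44E5.4 and F44E5.5, members of the Hsp70 family, moved together instead (r = 0.98 across libraries).

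**Figure D4:**
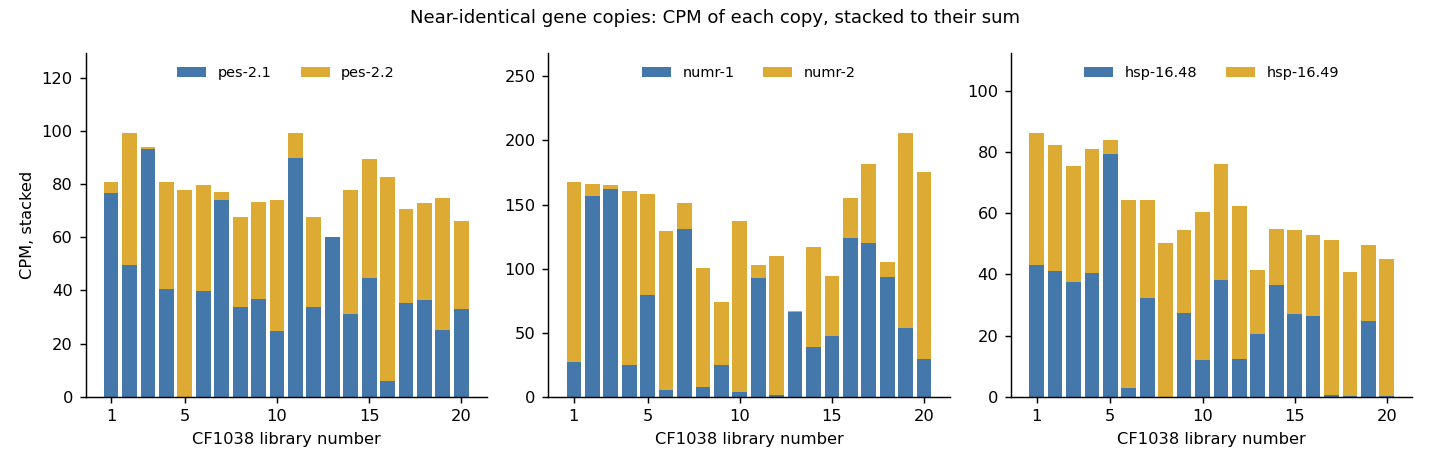
CPM of each copy of 3 pairs of near-identical genes, stacked to their sum, in each of the 20 CF1038 libraries. The share of a copy ranges between libraries from 0 to the whole for pes-2.1 and pes-2.2, while the height of their stack stays between 60.2 and 99.4 CPM.

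Nearly all variable genes fell into groups that varied together. Clustering of the 1250 genes on their correlation over the 20 libraries, with the tree cut at r = 0.5, gave 9 groups of at least 5 genes that held 1228 genes. The largest had 797 genes and the next 297. The size of the largest depended on single libraries: without library 9 the largest group had 413 genes and without library 1 it had 425. Because r in CF1038 chose the groups, it is given as a description, and the same gene pairs were read in N2. Over all pairs of the 1250 genes the median r was 0.26 in CF1038 and 0.12 in N2.

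The group of 797 genes held all 83 variable collagens, the 3 variable vitellogenins and all 10 muscle markers. It also held all 21 variable genes for moulting and cuticle formation outside the collagens. Of the 6 variable moulting markers it held 5, while nas-37 was in the group of 297 genes. The group held 797 of all 1250 variable genes, so the counts for vitellogenins and moulting markers are near its share in lists this short. The median r of the 797 genes was 0.72 in CF1038, 0.60 without libraries 9 and 11, and 0.49 in N2. The median gene of the group differed from its own median over the libraries by -1.26 log2 units in library 9, -1.25 in library 11, -0.73 in library 16 and 0.61 in library 1. Its central genes were clec-265, a C-type lectin, F53F1.4, hlh-11, glt-1 and C05C8.7. clec-265 ran from 5.37 CPM in library 11 through a median of 48.8 to 93.4 CPM in library 1.

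The group of 297 genes held acs-2, cpr-4, tts-1, scl-2, aqp-1, fmo-2, lipl-1, lipl-3, both catalases named above, lys-4, the metallothioneins mtl-1 and mtl-2 and 11 of the 17 variable proteases. Of the 25 variable lipases and fatty acid enzymes it held 14, while 7 were in the group of 797 genes. The median r of the 297 genes was 0.81 in CF1038, 0.82 without libraries 9 and 11, and 0.72 in N2. Its median gene was highest in library 11 (1.14 above its own median) and library 15 (1.00), and lowest in library 4 (-0.55) and library 3 (-0.53). The mean profiles of the 2 large groups ran against each other, with r = -0.81 over the CF1038 libraries, -0.80 without libraries 9 and 11, and -0.72 over the N2 libraries.

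A group of 62 genes held, among others, ule-1 and ule-2, named for the uterine lumen, transthyretin-like genes, fat-2, a fatty acid desaturase, and nlp-40, an intestinal neuropeptide. ttr-51 ran from 109 CPM in library 4 through a median of 187 to 324 CPM in library 19. The group's median gene was below its own median in libraries 1 to 9 and 11, and above it in libraries 10 and 12 to 20. Its median r was 0.78, and 0.59 after libraries 1 to 10 and 11 to 20 were each centred on their own mean, the largest such drop of the 8 groups described.

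A group of 23 genes ran the other way, with r = -0.83 between the mean profiles. It held the linker histones hil-3 and his-24, F44E5.4, F44E5.5, hsp-16.11 and sams-1, an S-adenosylmethionine synthetase. hil-3 had 60.5 CPM in library 17, a median of 104 and 150 CPM in library 1. The median gene was 0.30 to 0.47 above its own median in libraries 1 to 7 and 11, and lowest in library 16 (-0.75).

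The remaining groups were small. One of 18 genes held swt-3, a sugar transporter of the SWEET family, the peptides cnc-2 and fipr-24 and 5 mitochondrially encoded genes, and was highest in libraries 16 (1.08) and 19 (0.99). swt-3 stood at 30.7 to 39.9 CPM in libraries 16 to 20 and at 6.22 to 16.3 CPM in the others. One of 13 genes held rpl-39 and rpl-29, which code for short ribosomal proteins, and was highest in library 12 (1.23). rpl-39 stood at 713 to 762 CPM in libraries 10 and 12 to 14 and at 263 to 495 CPM elsewhere. One of 7 genes held fat-6, a delta-9 desaturase, and metr-1, the methionine synthase. Its median r was 0.71, but 0.49 without libraries 9 and 11, and library 11 was its highest (1.14). One of 6 genes held 4 ribosomal RNA genes, whose copies share reads, with rrn-3.1 at 8456 CPM in library 4 and 1721 CPM in library 15.

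**Figure D5:**
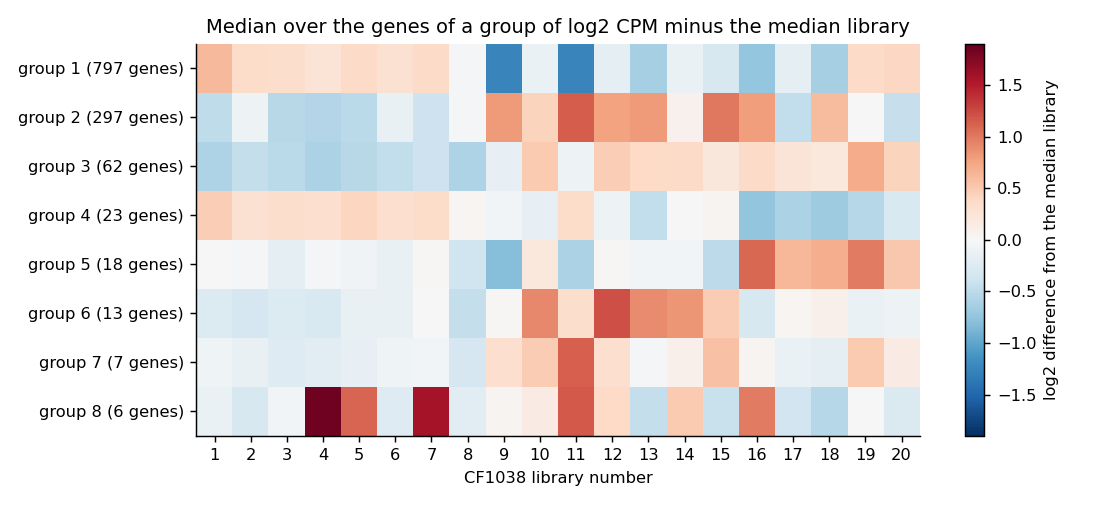
Median over the genes of each of the 8 largest co-varying groups of log2 CPM minus the gene's median library, in the 20 CF1038 libraries (red above, blue below the median library). Group 1 (797 genes) is lowest in libraries 9 (-1.26) and 11 (-1.25), where group 2 (297 genes) is high (0.82 and 1.14).

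The central pair of each group, the members with the highest mean correlation to the rest, was then correlated over the 30 N2 libraries. All 8 pairs were positively correlated, but rrn-1.2 and rrn-1.1 are copies that share reads, so their r of 0.96 says nothing about co-variation and 7 pairs remain. For clec-265 and F53F1.4 of the largest group Pearson's r was 0.94 and Spearman's rho 0.96 (2-sided permutation test, adjusted p = 1.14e-05 and 1.33e-05 over 8 pairs). The unadjusted p of 1e-05 is the smallest that 100000 resamples can give. For dhs-18 and scl-2 of the group of 297 genes r was 0.94 and rho 0.92, with the same adjusted p. The lowest was F07H5.3 with F23F12.12, at r = 0.63 and rho = 0.59 (permutation test, adjusted p = 0.00016 and 0.00072), against r = 0.93 in CF1038. Without the 2 N2 libraries farthest from the median, r was 0.52 for that pair and 0.62 to 0.97 for the other pairs. The central pairs do not stand for whole groups. Over all pairs of the group of 62 genes the median r was 0.40 in N2, against 0.78 in CF1038. It was 0.32 against 0.70 for the group of 23 genes and 0.34 against 0.73 for that of 18. For the groups of 13, 7 and 6 genes it was 0.65, 0.45 and 0.58 in N2, against 0.70, 0.71 and 0.72.

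Library-wide measures moved with the central genes of 4 of the 8 groups, but for F07H5.3 and rrn-1.2 the measure shares genes with the group. Of 32 correlations of a central gene with total count, genes detected, ribosomal RNA share or mitochondrial share over the 20 libraries, 4 passed adjusted p = 0.05 by permutation. nspe-7, central to the group of 23 genes, correlated with genes detected (r = 0.63, rho = 0.65, permutation test, adjusted p = 0.026 and 0.0279). F07H5.3 correlated with the mitochondrial share (r = 0.81, rho = 0.66, permutation test, adjusted p = 0.00016 and 0.0279). Its group was formed over these same libraries and holds 5 mitochondrially encoded genes, among them messages of that share. This r was thus in part set by the choice of the gene, and its p is no independent support. Libraries 16 to 20, where swt-3 of this group was high, had the 5 highest mitochondrial shares. K06A4.7, central to the group of 13 genes, correlated negatively with the mitochondrial share (r = -0.63, rho = -0.63, permutation test, adjusted p = 0.026 and 0.0331). rrn-1.2 is itself part of the ribosomal RNA share, with which it correlated at r = 0.96 and rho = 0.95 (permutation test, adjusted p = 0.00016 and 0.00032). Without the 2 libraries farthest from the median of the measure these r were 0.64, 0.62, -0.63 and 0.93. For clec-265 and dhs-18, central to the 2 large groups, none of the 4 measures passed (adjusted p of Pearson's r by permutation 0.387 to 0.985). Their r with the mitochondrial share was 0.36 and -0.31, and 0.50 and -0.62 without the 2 libraries farthest from its median. The part of these measures in the spread was not tested.

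Variable genes were unevenly placed in the genome. They made up 14.4% of tested genes on chromosome V and 13.6% on X, 10.4% on IV, 7.75% on II, 5.48% on III and 5.27% on I, and 9 of 14 mitochondrially encoded genes. Of the variable genes 36.3% lay next to another variable gene, against 15.6% of the other tested genes. Gene families with members side by side, such as the collagens col-3 and col-117 or the pud genes, share in this count.

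The strains were compared in spread, not in mean. By the same measure, against a trend fitted to N2 alone, 875 of 13194 genes were variable in N2 (6.63%), over 30 libraries. Each strain has its own trend, so counts and ratios of the strains are not on 1 scale. Of the variable genes tested in both strains, 642 were variable in both, which is 52.1% of those of CF1038 and 77.8% of those of N2. The ratios of the strains correlated at a Spearman rho of 0.76 over 12884 genes, a description, since genes are not independent. The median SD of all genes was 0.236 in CF1038 and 0.268 in N2, and 36.7% of 13152 genes had the larger SD in CF1038. The mean deviation of a library was 0.364 ± 0.0847 (SD, n = 20) in CF1038 and 0.374 ± 0.0960 (SD, n = 30) in N2, a difference smaller than the spread between libraries (permutation test, 2-sided, p = 0.704). The direction depended on the N2 libraries used: against N2 libraries 1 to 20 alone the difference was 0.0426 (permutation test, 2-sided, p = 0.101, and p = 0.0525 with the library number as a block).

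A test of the absolute deviation from the strain's median, fitted across 13152 genes with limma, called 2 genes with a larger spread in CF1038 (0.0152%) and 2 with a smaller spread (0.0152%) at an adjusted p under 0.05. One of the smaller calls, fbxa-151, had 0 counts in every CF1038 library and was tested only through its level in N2, so its call is void and 1 remains. At an unadjusted p under 0.05 there were 1648 genes. No collagen was among the 4. The call count moved with single libraries: leaving out library 4 or 10 gave 10 genes with a larger spread, and leaving out any of libraries 9, 11 to 15 or 18 to 20 gave 1. Deviations from the group mean in place of the median gave 97 larger and 20 smaller, and the library number as a block, with N2 libraries 1 to 20, gave 19 and 1.

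ser-4, a serotonin receptor, had the larger spread in CF1038. It stood at 8.55 to 10.9 CPM in libraries 1 to 8, and each of libraries 9 to 20 was higher, up to 27.2 CPM, with a median of 18.5 CPM over all 20 libraries, whereas the 30 N2 libraries lay between 6.32 and 11.8 CPM. Its mean absolute deviation differed by 0.40 on the log2 scale (SE 0.0760, limma, adjusted p = 0.00219). No gene had a larger spread in CF1038 once deviations were taken within library numbers 1 to 10, 11 to 20 and 21 to 30. exc-13 was the other, with 0.472 to 2.698 CPM in CF1038 and 4.25 to 11.3 CPM in N2 (difference 0.40, SE 0.0895, limma, adjusted p = 0.0365). Its SD in CF1038 was 0.75, a ratio of 1.89, so it was not variable for its level there, and the level was lower than in N2; the part of the level in the difference was not tested. The gene with a smaller spread, Y6E2A.4, lay between 1.12 and 2.33 CPM in CF1038 and between 2.40 and 18.8 CPM in N2 (difference -0.49, SE 0.108, limma, adjusted p = 0.0365).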

How the data were processed

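The values are expected counts of each gene in the table the authors deposited, made with STAR 2.7.11b and RSEM 1.3.3 on WBcel235 per the submitters' processing notes. RSEM shares a read that fits several genes among them. The sources used here give neither strandedness nor annotation release. About 2.73% of values were fractional, and all were rounded. Of 46904 genes, 46765 had a symbol from the WBcel235 annotation, 4072 of them by RefSeq coordinates of the same build.

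CF1038 and the 30 N2 libraries were grouped by the labels. CPM were scaled by edgeR 4.0.16 (TMM) and logged with a prior count of 2; CPM of CF1038 alone and of both strains together differ slightly through their scaling. The trend was a loess of log2 SD on mean log2 CPM (span 0.3) over genes with a mean of at least 1 CPM, fitted to each strain separately. Groups came from average linkage on 1 minus Pearson's r, keeping groups of at least 5 genes. Spread was compared with limma 3.58.1 (eBayes with trend and robust settings, absolute deviation from the group median, Benjamini-Hochberg). Permutation tests used 100000 resamples. Variance-stabilised values from DESeq2 1.42.0 were an alternative, and R 4.3.3, Python 3.11.15, NumPy 2.4.6 and matplotlib 3.10.9 were used. Both call steps were run on simulated data in which genes varied independently, so that run does not cover genes that vary together, as here.

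Named genes are the 25 with the largest and the 8 with the smallest ratio (mean of at least 5 CPM, standard symbol), up to 3 variable members of each family, the 5 central genes of each group, the 10 per direction with the smallest adjusted p between strains, the 5 farthest genes of each of the 5 most deviating libraries, and daf-16. A member of a family or group outside this rule that is named, and Y6E2A.4, were chosen after their values were seen. Members and lists were chosen with earlier results of these data known. With at least 34443138 counts a library, counting error was far below the typical SD except near 1 CPM. P-values measure only the spread between these libraries, which may be technical.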

Additional observations from a re-analysis of the deposited data

How the results depend on the processing

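The count of 1250 variable genes lay between 997 and 1467 under the other normalization, prior counts, filters, measures of spread and centring tried, and between 1146 and 1286 without single libraries; ratios of at least 1.5 and 3 gave 2456 and 479 genes. All 25 named genes with the largest ratios stayed at a ratio of at least 2 in all 750 recomputed values, but the size of the ratio depended on the measure. With the MAD it was 2.59 for pes-2.2 (11.6 with the SD), 2.71 for pes-2.1 (11.6) and 2.88 for col-124 (7.87). It was 3.31 for hsp-16.48 (10.8) and 5.57 for col-93 (11.1). Groups numbered 7 to 10 without single libraries, with 413 to 813 genes in the largest and 242 to 405 in the next; a tree at r of 0.6 left 420 in the largest. Leaving out libraries 9 and 11, and using N2 libraries 1 to 20 without a block, were chosen after seeing the data.

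The counts of genes with a larger and a smaller spread in CF1038 (2 and 2, with fbxa-151, at 0 counts in CF1038, among the smaller) were unstable. They were 19 and 1 with a replicate block over library numbers 1 to 20, 3 and 0 with the same N2 libraries without a block, 97 and 20 for deviations from the group mean, 11 and 4 for the log2 of the squared deviation, 0 and 1 when centred within library numbers, 1 and 0 at a mean of at least 5 CPM, 1 and 1 at 0.1 CPM, 2 and 4 with a prior count of 8, and 1 and 2 without libraries 9 and 11. Without single libraries they ran from 1 to 10 and from 1 to 2; leaving out library 2, 3, 4, 5, 6, 8, 10 or 17 gave 5 or more larger, and leaving out library 5, 7, 9, 11 to 14 or 16 to 20 gave 1 smaller. The cause was not tested.

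The difference in library deviation (-0.0100) lay between -0.0225 and -0.00398 without single libraries, and reversed to 0.0426 with N2 libraries 1 to 20, where permutation gave p = 0.101 without and p = 0.0525 with the replicate block. No label says whether library numbers pair the strains. Same-numbered libraries correlated at a median of 0.36 (lowest -0.47, over 0.1 in 15 of 20 cases), against a median of -0.03 for other numbers. Of the 20 CF1038 libraries, 4 correlated best with their own number. The main tests took no account of the number, and the results with it as a block are given above. Genes near 1 CPM are limited by depth, with counting SD of 0.179 against a typical SD of 0.373.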
